A study of Mus musculus with 4 samples.

Results

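Kap, Slco1a1, Acsm3, Inmt, Cyp4b1, Cyp2j13, Cyp7b1, Acsm2 and Odc1 are genes of the kidney proximal tubule that are listed as androgen-responsive, 9 of the 32285 genes in each library. They were chosen by their pooled levels in proximal tubule cells, which had been seen to differ between these libraries, so the levels and ratios are a description and no test was made on them. Single-cell RNA-Seq was performed on whole kidneys of male C3H mice, with 1 library per condition. WT mice on normal diet (WT-ND) and on high-fat diet (WT-HFD) were compared with Sweet Pee mice on the same diets (SP-ND and SP-HFD), a line with an altered amino acid in SGLT2, the glucose transporter that Slc5a2 encodes. Strings of 4 values below are in that order, WT before SP and ND before HFD. All mice began the diet at 10 weeks of age, ate it for 8 weeks and were 18 weeks old at harvest, and HFD supplied 60% of calories as fat. The number of mice behind a library is not given in the sources used here.

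Androgens are steroid hormones that change transcription in the proximal tubule, and steroid receptors as a class bind paired copies of a short DNA hexamer. The mouse proximal tubule is one of the tissues in which male and female gene expression differ most, and the later, straight part of the tubule carries much of that difference. Several genes of the set, Kap and Odc1 among them, have long served as readouts of androgen action in mouse kidney. No hormone level is part of these data.

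Proximal tubule cells were taken as kept cells with at least 5 UMIs of Slc34a1 and Lrp2, the sodium-phosphate cotransporter and megalin. UMIs, unique molecular identifiers, count captured RNA molecules. The rule gave 3313, 3622, 1323 and 856 cells. Early cells held Slc5a12 and late cells held Slc7a13, each at 2 or more UMIs and at more than 2 times the UMIs of the other gene. There were 971, 432, 335 and 247 early cells and 1113, 728, 457 and 228 late cells. Levels are CPM, the share of UMIs that a gene takes (10000 CPM is 1% of UMIs), pooled over all cells of a segment in a library, and all intervals are 95% intervals that cover counting error only, since no condition has a second library. Slc5a2, Slc6a19 and Slc4a4, early genes that the split did not use, were lower in late than in early cells of all 4 libraries. Of the late genes not used, Bcat1 was at or below 4.49 CPM everywhere, and Slc22a30 was at 287 CPM in late and 288 CPM in early cells of WT-HFD, so the late cells are best described as Slc7a13-rich. Slc7a13 is itself higher in male than in female kidney.

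The libraries were not alike in depth or in markers of other cell classes. The median number of UMIs per cell was 8569 to 14732 in early and 11757 to 17554 in late cells. Slc5a2 was at 591 and 419 CPM in early cells of WT-ND and WT-HFD and at 135 and 164 CPM in SP-ND and SP-HFD. The male genes Ddx3y, Uty, Eif2s3y and Kdm5d were found in all 4 libraries, with Xist at 0.201 CPM or less. WT-HFD stood apart: 61.4% of its late cells held more than 0.2% of their UMIs in 40 marker genes of other kidney cell classes, against 5.47% to 12.1% in the other libraries. The summed level of those markers in late cells was 2833 CPM in WT-HFD and 516 to 959 CPM elsewhere, and 37 of the 40 were higher in WT-HFD than in WT-ND. The thick ascending limb markers Slc12a1, Umod and Cldn16 summed to 1179 CPM in late cells of WT-HFD. The paper reports PT-HFD, a proximal tubule subcluster found mostly in WT mice on HFD, which also expressed Slc12a1 and Umod. Whether the marker-rich cells hold RNA of other cells or are in that state was not tested. In late cells 0 of the 40 markers were at 0 UMIs in WT-HFD, against 1 in WT-ND (Csf3r), 9 in SP-ND and 5 in SP-HFD, among them the T cell marker Cd3e and the B cell marker Ms4a1 in both SP libraries. Of the proximal tubule cells of WT-HFD, 68.0% fell in neither segment, against 37.1% to 44.5% in the others. Between 54 and 77 cell barcodes were shared by each pair of libraries, at most 6 of them proximal tubule cells in both. At the edge of the rule, cells with 5 or 6 UMIs of the rule genes held Kap at 10083, 18090, 5290 and 20538 CPM, and cells with 3 or 4 held 6762, 10465, 1334 and 4485 CPM.

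Droplets also carry RNA that floats free of cells, and its level was read from immune cells. Immune cells were shallower (median 2023 to 3705 UMIs) than early cells (8569 to 14732). Their CPM may thus overstate the share of free RNA in proximal tubule cells, which was not tested. Kap stood at 7176, 2332, 1024 and 1379 CPM in immune cells, which was 10.1%, 4.33%, 3.34% and 1.95% of its level in late cells. Kap UMIs remained in 64.7% to 99.6% of immune cells thinned to 1000 UMIs (median depth before thinning 2023 to 3705), so the presence of a Kap UMI says little and the level was used instead. Odc1 in immune cells was 17.6, 51.3, 65.0 and 63.2 UMIs per 1000 Kap UMIs, against 10.1, 22.8, 11.6 and 23.0 in proximal tubule cells. Its immune level was 66.6 to 127 CPM, and the origin of those UMIs was not tested.

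The genes lie on 5 chromosomes of GRCm38 in the GENCODE annotation, and all are protein coding. Kap (133849851 to 133853762), Inmt (55170626 to 55175043) and Slco1a1 (141907282 to 141946962) are on the minus strand of chromosome 6. Acsm2 (119554340 to 119600690) and Acsm3 (119760923 to 119787513) are on the plus strand of chromosome 7. Cyp4b1 (115624725 to 115647723) and Cyp2j13 (96027534 to 96077546) are on the minus strand of chromosome 4. Cyp7b1 is on the minus strand of chromosome 3 (18071950 to 18243338) and Odc1 on the plus strand of chromosome 12 (17544794 to 17551505).

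Promoter windows from RefSeq (GRCm38.p6), 250 bases before to 50 bases after the annotated start, were found for 8 of the 9 genes. Because most of these genes shared a pattern over the libraries, the windows were searched on both strands for the steroid response hexamer AGAACA or its complement TGTTCT, and on the sense strand for the TATA box letters TATAAA. No position was shared by the 2 kinds of match. The hexamer was present in the windows of 2 of the 8 genes, Cyp4b1 and Acsm2, and in 19.0% of 32851 promoter windows of the genome. AGAACA followed after 3 bases by TGTTCT, the full inverted repeat, was in 0 of the 8 and in 3 of all windows. TATAAA was present for 3 of the 8 genes, Kap, Inmt and Acsm2, and in 8.32% of all windows. The 4 windows with a match are printed 5′ to 3′ on the gene's strand with the matches in capitals, because they are the windows that hold either motif. In Kap the TATA box begins 31 bases before the start and in Acsm2 28 bases before it, while the hexamer of Cyp4b1 is at the far edge of its window and that of Acsm2 lies after the start. A match or its lack describes these letters only. Kap lies at chr6:133853618-133853917, Inmt at chr6:55174941-55175240, Cyp4b1 at chr4:115647672-115647971 and Acsm2 at chr7:119554090-119554389.
Kap: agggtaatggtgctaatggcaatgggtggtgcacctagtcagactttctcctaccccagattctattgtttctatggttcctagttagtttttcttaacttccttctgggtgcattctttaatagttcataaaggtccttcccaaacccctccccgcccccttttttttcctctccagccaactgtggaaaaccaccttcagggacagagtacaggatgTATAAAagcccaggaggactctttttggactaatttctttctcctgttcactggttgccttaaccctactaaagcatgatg
Inmt: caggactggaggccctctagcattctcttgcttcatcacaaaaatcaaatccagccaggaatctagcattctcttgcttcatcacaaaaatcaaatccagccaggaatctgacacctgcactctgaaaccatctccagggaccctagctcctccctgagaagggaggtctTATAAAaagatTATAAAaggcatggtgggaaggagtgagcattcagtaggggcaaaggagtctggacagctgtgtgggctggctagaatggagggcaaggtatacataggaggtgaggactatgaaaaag
Cyp4b1: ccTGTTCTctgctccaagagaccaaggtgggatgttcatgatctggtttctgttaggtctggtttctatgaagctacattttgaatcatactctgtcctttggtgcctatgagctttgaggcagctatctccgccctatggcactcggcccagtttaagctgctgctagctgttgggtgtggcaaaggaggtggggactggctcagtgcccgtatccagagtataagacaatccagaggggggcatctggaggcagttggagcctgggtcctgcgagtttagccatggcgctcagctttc
Acsm2: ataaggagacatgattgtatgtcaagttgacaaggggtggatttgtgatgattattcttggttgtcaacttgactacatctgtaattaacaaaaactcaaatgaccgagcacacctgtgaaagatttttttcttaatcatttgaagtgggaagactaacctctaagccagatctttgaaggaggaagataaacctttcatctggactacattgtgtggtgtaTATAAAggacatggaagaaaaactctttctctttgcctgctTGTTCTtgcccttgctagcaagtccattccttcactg

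Across the set, SP-ND was the library with the lowest level. All 8 genes with a mean of at least 10 CPM in early cells were lowest there, as were 7 of 9 in late cells. Over all genes measured, SP-ND was lowest for 23.1% of 6919 in early and 25.5% of 6797 in late cells. In the proximal tubule cells of neither segment, 7 of 8 genes were lowest in SP-ND, beside 24.9% of all 7404 genes measured there. The exceptions were Cyp7b1 and, in late and unsplit cells, Acsm2. SP-ND was also the library with the most barcodes at or over the limit of 50% mitochondrial UMIs (49.8% against 32.7% to 42.1%). In kept cells the median share of mitochondrial UMIs was 32.2%, 30.5%, 37.4% and 29.7% in late and 34.5%, 32.6%, 37.3% and 37.4% in early cells. Other mitochondrial limits were among the alternatives under which each ratio was recomputed. The part of these differences in the gene levels was not tested.

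**Figure D1:**
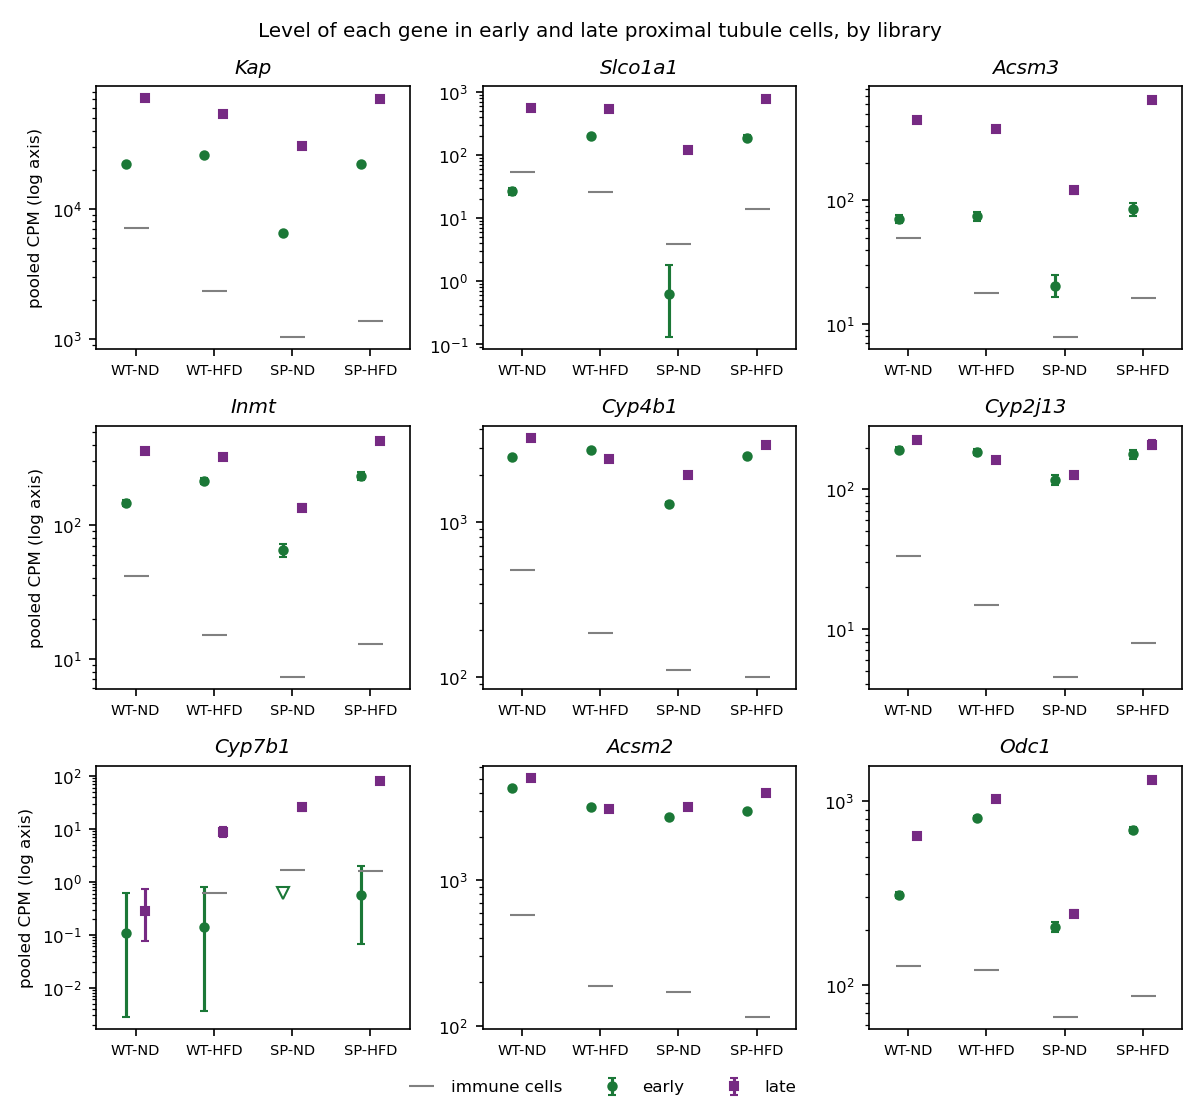
Pooled level of each gene in CPM (log axis) by library, in early cells (green circles) and late cells (purple squares), with 95% Poisson intervals. Grey dashes are the level in immune cells and the open triangle is the limit for a count of 0. SP-ND is the low point for most genes, and early Slco1a1 lies below the immune dash in WT-ND and SP-ND.

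Kap encodes the kidney androgen-regulated protein, a small protein made in very large amounts by proximal tubule cells. In late cells it made up 7.13%, 5.39%, 3.07% and 7.06% of all UMIs. In early cells the shares were 2.20%, 2.59%, 0.653% and 2.23%. The SP-ND library was thus below the other 3 in both segments, and SP-HFD was at the WT-ND level. As a log2 ratio, SP-HFD over SP-ND was 1.77 (1.76 to 1.79) in early and 1.20 (1.19 to 1.21) in late cells. Its counterpart in WT was 0.23 (0.22 to 0.24) in early and -0.40 (-0.41 to -0.40) in late cells. With the immune cell level subtracted, the early ratios were 1.93 in SP and 0.66 in WT.

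The low Kap of SP-ND was also seen in the median cell. The median early cell held 150, 175, 18.0 and 128 Kap UMIs per 10000. In the median late cell these were 643, 397, 263 and 588. The spread within early cells of SP-ND was wide, from 4.89 at the lower to 95.2 at the upper quartile, while late cells of SP-ND ran from 183 to 384. Late exceeded early Kap in all 4 libraries, by 3.23-fold, 2.08-fold, 4.70-fold and 3.16-fold.

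**Figure D2:**
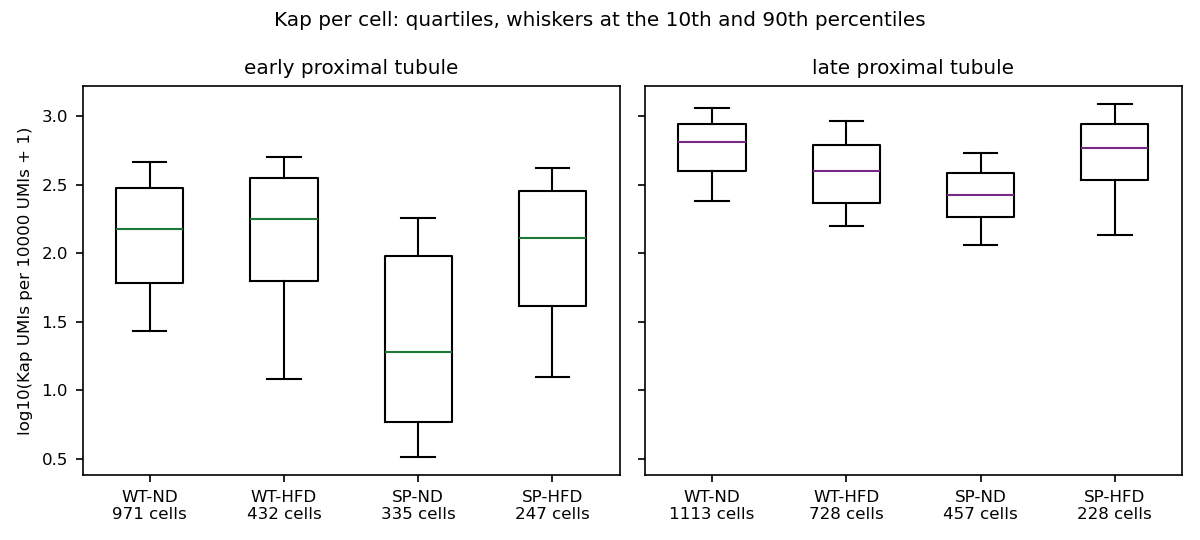
Kap per cell, as log10 of UMIs per 10000 UMIs plus 1, in early (left) and late (right) cells of each library. Boxes are quartiles with the median, and whiskers reach the 10th and 90th percentiles of cells. The SP-ND box is the lowest in both segments, with an early median of 18.0 against 128 to 175 UMIs per 10000 in the others.

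Slco1a1, an organic anion transporter of the OATP family in the apical membrane, had more RNA in late than in early cells of all 4 libraries, by 2.67-fold in WT-HFD and 4.07-fold in SP-HFD. Its late levels were 563, 538, 121 and 776 CPM. Its early levels were 27.0, 202, 0.629 and 190 CPM, the SP-ND value resting on 3 UMIs. On ND, both early levels were below those of immune cells (54.8 and 3.92 CPM), so the ratio between them is not read. In counts, WT-ND had 247 UMIs in 971 early cells and 77 in 556 immune cells. SP-ND had 3 in 335 early and 7 in 486 immune cells. Immune cells were shallower, so how much of the early level is free RNA was not settled. On HFD, the early levels were above the immune levels of 26.3 and 13.8 CPM in both genotypes. Late SP-HFD over SP-ND was 2.68 (2.57 to 2.79) on the log2 scale, and SP-ND over WT-ND was -2.22 (-2.32 to -2.12).

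Slco1a6, a near relative of Slco1a1 whose reads could be confused with it, did not share this pattern. It stood at 260, 119, 303 and 150 CPM in late cells, so that it was lower on HFD than on ND in both genotypes, by a log2 ratio of -1.12 (-1.22 to -1.03) in WT and -1.02 (-1.16 to -0.87) in SP.

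Acsm3 and Acsm2 encode medium-chain acyl-CoA synthetases, mitochondrial enzymes that activate medium-chain fatty and aromatic acids. Acsm3 was at 443, 375, 121 and 644 CPM in late and at 70.5, 74.3, 20.5 and 84.8 CPM in early cells, so SP-ND was again the low library and late cells held 5.04-fold to 7.60-fold more. Late SP-HFD over SP-ND was 2.41 (2.30 to 2.52). In WT-ND, the CPM of Acsm3 in immune cells, which were shallower, was 70.6% of that in early cells. Acsm2 was nearly even between segments, with late over early at 0.962-fold to 1.33-fold. It stood at 5045, 3077, 3191 and 3990 CPM in late and at 4313, 3198, 2729 and 3003 CPM in early cells, and WT-ND was its highest library in both. Its SP-HFD over SP-ND ratio was 0.32 (0.29 to 0.35) in late and 0.14 (0.10 to 0.18) in early cells. Acsm1, of the same family, was at 239 to 335 CPM in late cells and was lowest in SP-ND.

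Inmt encodes indolethylamine N-methyltransferase, which moves a methyl group from S-adenosylmethionine to tryptamine and related amines. It was at 360, 325, 135 and 426 CPM in late and at 146, 215, 65.0 and 233 CPM in early cells. SP-HFD over SP-ND was 1.65 (1.54 to 1.77) in late and 1.84 (1.65 to 2.03) in early cells, and SP-ND over WT-ND was -1.41 (-1.51 to -1.31) and -1.16 (-1.35 to -0.98).

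Cyp4b1 and Cyp2j13 are cytochromes P450, the former acting on fatty acids and foreign compounds and the latter a member of a family of arachidonic acid epoxygenases. Their contrasts were smaller. Cyp4b1 was at 3454, 2532, 1994 and 3159 CPM in late and at 2630, 2920, 1309 and 2646 CPM in early cells. Cyp2j13 was at 227, 162, 126 and 210 CPM in late and at 193, 186, 117 and 179 CPM in early cells, with little difference between segments. Late SP-HFD over SP-ND was 0.66 (0.63 to 0.70) for Cyp4b1 and 0.74 (0.59 to 0.88) for Cyp2j13, both under 2-fold. Cyp2j5, the most abundant relative of Cyp2j13, was at 819, 617, 826 and 818 CPM in late cells, and SP-ND was not its low library there. In early cells it was at 817, 786, 739 and 771 CPM, lowest in SP-ND. Early SP-ND over WT-ND was -0.14 for Cyp2j5 and -0.73 for Cyp2j13.

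Odc1 encodes ornithine decarboxylase, the rate-limiting enzyme of polyamine synthesis. It was at 649, 1028, 244 and 1305 CPM in late and at 309, 813, 206 and 700 CPM in early cells. Of the 8 genes measured in both segments, Odc1 was the only one higher on HFD in both genotypes and both segments. Its log2 ratio of HFD over ND was 1.40 (1.33 to 1.46) in early and 0.66 (0.62 to 0.70) in late cells of WT, and 1.76 (1.66 to 1.87) and 2.42 (2.34 to 2.50) in SP. Without cells over 0.2% in other-class markers, Kap, Slco1a1, Acsm3 and Inmt were also above 0 throughout. In WT this came to almost no change for early Acsm3 (0.007) and late Kap (0.02), against 1.38 and 0.97 for early and late Odc1. With the immune cell level subtracted, which may take off too much, early WT Acsm3 was at 1.45 and early WT Odc1 at 1.93. Of the 7 other polyamine genes listed, 6 were measured at a mean of 10 CPM or more. None of the 6 was 2-fold higher on HFD in either genotype or segment, and Sms, spermine synthase, was the 1 that was 2-fold lower in late cells, at -1.27 in WT and -1.11 in SP. Of all genes in late cells, 1.37% were 2-fold lower on HFD in WT and 2.12% in SP.

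Cyp7b1, which encodes oxysterol 7-alpha-hydroxylase, an enzyme of oxysterol and neurosteroid metabolism, went another way. Its late counts were 4, 86, 197 and 256 UMIs, or 0.286, 8.66, 25.5 and 82.1 CPM. Its early counts were 1, 1, 0 and 2 UMIs, and the floor of 3 counts for the 0 in SP-ND is 0.629 CPM. SP-ND over WT-ND in late cells was 6.48 (5.10 to 8.37) on the log2 scale, over 4 UMIs in WT-ND, and SP-HFD over WT-HFD was 3.24 (2.89 to 3.61). Cyp7b1 reached the mean of 10 CPM only through the SP libraries. These UMIs came from few cells: 2 of 1113, 11 of 728, 14 of 457 and 34 of 228 late cells. In principal cells of the collecting duct, Cyp7b1 was at 14.1 to 21.6 CPM in all 4 libraries.

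Late cells with a Cyp7b1 UMI were then set beside the other late cells of the same library, a comparison chosen after these values had been seen. Serpina1f, a serpin gene that is higher in male kidney, was found in 13 of the 14 such cells in SP-ND and in 28 of 34 in SP-HFD, against 0.226% and 2.58% of the other late cells. Slc7a13 was at 2802 and 2446 CPM in these cells and at 552 and 756 CPM in the others. Inmt was at 15.1 against 138 CPM in SP-ND and at 103 against 451 CPM in SP-HFD, and Cyp4b1 at 45.3 against 2028 CPM and at 1436 against 3291 CPM. Slco1a1, Odc1, Acsm2 and Cyp2j13 were lower in the cells with Cyp7b1 as well, while Acsm3 was higher, at 423 against 116 CPM and at 830 against 630 CPM. Kap was nearer to the other cells, at 25326 against 30789 CPM and at 63009 against 71182 CPM. In the SP libraries the cells with Cyp7b1 were shallower, with a median of 6879 against 17976 UMIs in SP-ND and 4506.5 against 15137 in SP-HFD. In WT-HFD they were not, at 12418 UMIs in the 11 such cells against 12050 in the others. Serpina1f was found in 5 of those 11, and the contrasts of Inmt (270 against 325 CPM) and Cyp4b1 (1818 against 2542 CPM) were smaller. Cells with Cyp7b1 made up 14.9% of the late cells of SP-HFD and 0.180% of those of WT-ND. With 1 library per condition, library and condition cannot be told apart.

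**Figure D3:**
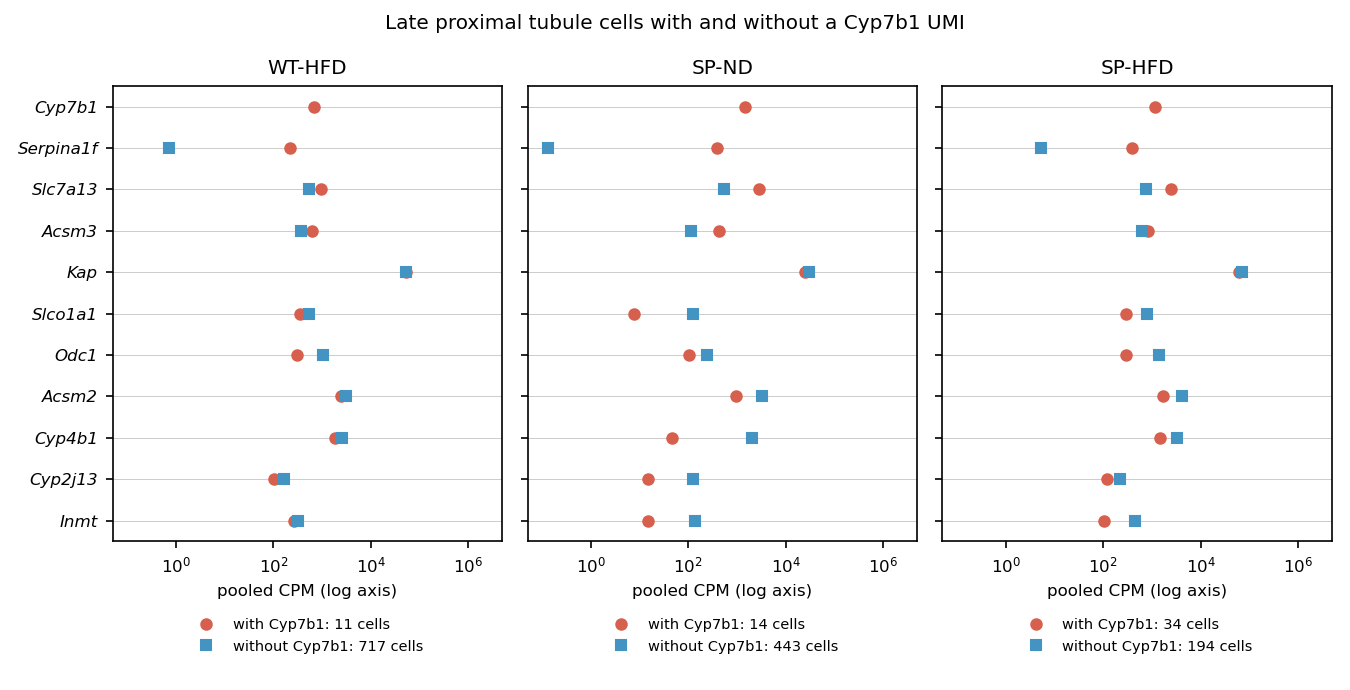
Pooled CPM (log axis) of the genes in late cells with (red circles) and without (blue squares) a Cyp7b1 UMI, in the 3 libraries with more than 2 such cells. The circles of Serpina1f, Slc7a13 and Acsm3 lie to the right of the squares, those of Inmt, Cyp2j13, Cyp4b1, Slco1a1, Odc1 and Acsm2 to the left.

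The effect of HFD in SP mice was read by setting SP-HFD against SP-ND. Of the 8 genes measured in early cells, 6 were at least 2-fold higher on HFD (Kap, Slco1a1, Acsm3, Inmt, Cyp4b1 and Odc1) and 0 lower. The early Slco1a1 ratio rests on 3 UMIs in SP-ND. Among all 6919 genes, 5.1% differed by 2-fold or more in either direction 2.5% higher and 2.6% lower. In late cells 6 of 9 were higher (Kap, Slco1a1, Acsm3, Inmt, Cyp7b1 and Odc1), where 6.28% of 6797 genes passed 2-fold, 4.16% higher and 2.12% lower. Cyp7b1 reached the mean of 10 CPM only through the SP libraries, so its place among the 6 is not free of that filter. When the segments were split by summed marker lists the late count was 4, with Kap at 0.72 and Cyp7b1 at 0.30. The median log2 ratio of the set was 1.77 in early and 1.65 in late cells, and that of all genes -0.04 and 0.05.

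In WT mice the same diet gave a smaller ratio than in SP for the 8 genes other than Cyp7b1, in both segments. Late Cyp7b1 was the reverse, at 4.92 (3.51 to 6.83) in WT over a WT-ND count of 4 UMIs against 1.69 (1.41 to 1.96) in SP. Slco1a1 and Odc1 were at least 2-fold higher in early cells (2.7% of all genes passed in either direction, 1.34% higher and 1.36% lower), although the WT-ND level of early Slco1a1 was below that of immune cells and its ratio was 0.12 with the segments merged. The merged ratio of Odc1 was 0.77, also under 2-fold. Cyp7b1 alone passed in late cells (5.69% of all genes, 4.33% higher and 1.37% lower). In late cells 7 of 9 genes were lower in WT-HFD than in WT-ND, with a median of -0.24. This was not particular to the set, since 10 of 12 proximal tubule genes without a listed sex bias were lower too, with a median of -0.53. The median of all genes was 0.01. For Kap, Slco1a1, Acsm3 and Inmt the direction changed when late cells that hold markers of other classes, of which WT-HFD had the most, were left out. Slco1a1 (-0.07) changed sign in 5 of 17 alternatives, among them the immune cell level subtracted (0.009), and Inmt (-0.15) in 2. Without late cells over 0.2% in such markers, the WT ratio was 0.02 for Kap, 0.40 for Slco1a1, 0.29 for Acsm3 and 0.23 for Inmt, and stayed below 0 for Cyp4b1 (-0.13), Cyp2j13 (-0.13) and Acsm2 (-0.32). The SP ratios hardly moved in that setting, at 1.23, 2.66, 2.40 and 1.69 for Kap, Slco1a1, Acsm3 and Inmt.

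The effect of the mutation on ND was read from SP-ND against WT-ND. The 4 comparisons use each library 2 times, so the low SP-ND values enter this contrast and the diet contrast in SP alike. In early cells 5 of 8 genes were at least 2-fold lower in SP-ND (1.4% of all genes passed in either direction, 0.679% higher and 0.723% lower), with a median of -1.09. The 5 were Kap, Slco1a1, Acsm3, Inmt and Cyp4b1, of which Slco1a1 was below the immune level in both libraries. In late cells 5 of 9 were lower and Cyp7b1 was higher (2.43% of all genes, 0.588% higher and 1.84% lower), with a median of -1.22. Cyp7b1 met the filter of 10 CPM only through the SP libraries. With the split by summed marker lists late Kap was at -0.75, under 2-fold. Taking the immune cell level off each library left 1 of the early genes past 2-fold, Kap at -1.43. Among the others, Acsm3 then had -0.70, Inmt -0.85 and Cyp4b1 -0.83, and Slco1a1 had no value left. Immune cells were shallower than early cells, at a median of 2022.5 against 8569 UMIs in WT-ND and 3211.5 against 14346 in SP-ND. The subtraction in CPM may thus take off too much, so the fall in number is not read as the part of free RNA. The late ratios with the immune level taken off were -1.11 for Kap, -2.12 for Slco1a1, -1.79 for Acsm3 and -1.31 for Inmt.

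On HFD the genotypes were close. In early cells 0 of 8 genes passed 2-fold between SP-HFD and WT-HFD (0.737% of all genes passed, 0.448% higher and 0.289% lower), with ratios from -0.22 for Odc1 to 0.19 for Acsm3. In late cells only Cyp7b1 passed (3.87% of all genes, 0.794% higher and 3.07% lower), a gene that met the filter of 10 CPM only through the SP libraries. The other 8 ranged from 0.32 to 0.78, all higher in SP-HFD. Without the late cells over 0.2% in other-class markers these 8 came to between -0.06 for Kap and 0.19 for Acsm3. Of 12 proximal tubule genes without a listed sex bias, 11 were also higher in SP-HFD over all late cells. Their median was 0.34, beside 0.39 for the set.

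Proximal tubule cells that fell in neither segment gave a further set of levels. Kap was at 29206, 27651, 10782 and 32146 CPM there, Slco1a1 at 113, 239, 12.9 and 336 CPM and Odc1 at 326, 656, 171 and 837 CPM. Acsm3 was at 127, 136, 51.2 and 242 CPM and Inmt at 176, 206, 77.4 and 287 CPM. SP-ND was the lowest library for each of these 5 genes and SP-HFD the highest. Of these unsplit cells, 75.1% in WT-HFD held over 0.2% of other-class marker UMIs, against 19.9% to 28.2% in the other libraries. The origin of those UMIs was not tested.

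The share of late cells with a UMI was compared after thinning each cell to 1000 UMIs, which left out 0 to 7 late cells per library. Slco1a1 was then found in 38.8%, 35.4%, 10.7% and 45.1% of late cells, and in 6.50%, 4.58%, 0.431% and 1.40% of immune cells, where it stands for free RNA. Without thinning it was found in 90.5%, 91.6%, 50.8% and 82.5% of late cells. Acsm3 was found in 35.6%, 24.9%, 11.4% and 46.5% and Inmt in 28.5%, 21.3%, 13.3% and 29.6% of thinned late cells. SP-ND had the lowest share for all 3 genes, in the same place as in the pooled levels.

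**Figure D4:**
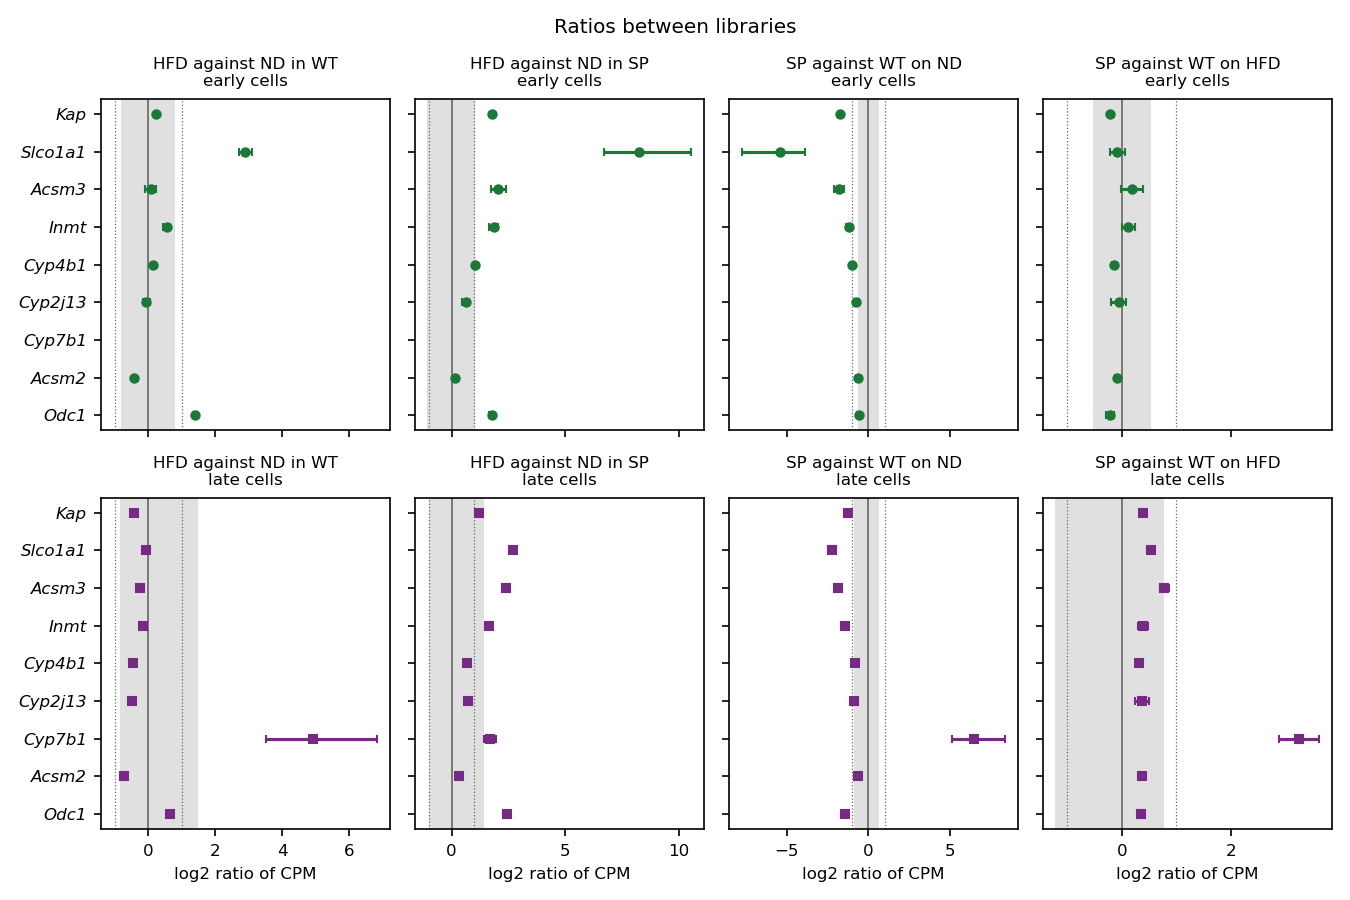
Log2 ratio of CPM between libraries for each gene in the 4 comparisons, early cells above and late cells below, with 95% counting intervals. Grey bands hold the central 95% of all genes measured, and dotted lines mark 2-fold. On HFD against ND in SP, most points lie right of the band, and on SP against WT on ND most lie left of it.

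Other genes with a male or female bias were read from lists. Of 11 other genes that are higher in male kidney or raised by androgen, 10 were measured in late cells, and 5 of these were at least 2-fold higher in SP-HFD than in SP-ND: Adh1, Cyp2e1, Gusb, Slc22a30 and Serpina1f, beside 4.16% of all genes. Slc7a13, which set the late cells, is among the 10. Serpina1f reached the mean of 10 CPM only through SP-HFD, so its place among the 5 is not free of that filter. In late cells of SP-HFD, 88 of its UMIs were in the cells with Cyp7b1 and 15 in the others. In early cells 4 of 9 were higher and Slc7a13 was lower, at -1.41, with a median of 0.48 (2.5% of all genes higher and 2.6% lower). The rule for early cells limits their Slc7a13, so its ratio there is not read, although the 9 and their median include it. The median of the 10 in late cells was 1.10, against -0.11 for 12 proximal tubule genes without a listed sex bias. Adh1, alcohol dehydrogenase, was at 181, 230, 104 and 350 CPM in late cells, and Gusb, beta-glucuronidase and a classic androgen readout, at 21.1, 41.3, 13.8 and 51.0 CPM. Cyp2e1, another P450, was at 1576, 1517, 772 and 1912 CPM. SP-ND was the low library for all 3. Spink1 and Mep1a did not follow, at 2000, 984, 1686 and 1300 CPM and at 24.1, 24.2, 25.1 and 36.9 CPM. On ND, 1 of the 10 was at least 2-fold lower in SP (Cyp2e1 at -1.03), Serpina1f was at least 2-fold higher (52 UMIs against 0) and the median was -0.35. Of all genes, 0.588% were at least 2-fold higher and 1.84% lower there.

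Of 7 genes listed as higher in female kidney, 2 were measured. Cyp4a14, a fatty acid hydroxylase that PPAR-alpha is also known to raise, was at 16.3, 0.403 and 526 CPM in late cells of the first 3 libraries. It had 0 UMIs in SP-HFD, where the floor of 3 counts is 0.962 CPM. Hao2, a hydroxy acid oxidase, was at 124, 118, 188 and 163 CPM.

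Genes of steroid handling were read from a further list. Nr3c1, the glucocorticoid receptor, was at 72.7, 46.5, 86.8 and 54.5 CPM in late cells, so that SP-ND was its highest library. Fkbp5, a gene that steroid hormones are known to raise, was at 31.6, 41.1, 23.2 and 81.8 CPM there. Hsd11b1, which regenerates active glucocorticoid, was at 54.0, 297, 8.28 and 357 CPM in late cells, but in early cells at 7.65, 18.4, 26.6 and 9.29 CPM. Of the 11 steroid receptor and enzyme genes, 8 were measured in late cells, and 4 were at least 2-fold higher and 0 lower in SP-HFD than in SP-ND (4.16% of all genes higher and 2.12% lower). In early cells 2 of 8 were higher and 1 lower (2.5% of all genes higher and 2.6% lower). There 4 ratios were above 0 and 4 below, with a median of 0.06.

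The genes whose levels most resembled those of the set were found over the 8 profiles (2 segments of 4 libraries) among 2136 genes with a mean of at least 50 CPM, by the correlation of log2(CPM + 1). The profiles share libraries and depth, so the values are descriptions. Kap was closest to Acat1 (r = 0.98) and Acsm3 (0.97), Slco1a1 to Slco3a1 (0.99), Acsm3 to Aadat (0.98), Inmt to Hsd17b11 (0.99) and Odc1 to BC024386 (0.98). Cyp4b1 and Cyp2j13 were near each other (0.94). Among pairs of the 9 genes r ran from -0.03 for Cyp2j13 and Cyp7b1 to 0.97 for Kap and Acsm3, and it was 0.01 for Cyp7b1 and Acsm2 and 0.21 for Acsm2 and Odc1.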

How the data were processed

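Droplet 3′ single-cell RNA-Seq libraries of whole kidney, 1 per condition, were used. The authors deposited raw UMI counts for each gene in each barcode, aligned to mm10. The processing notes name Cell Ranger 2.1.1 and the file header 6.1.2, and every barcode holds at least 500 UMIs. Totals were 93142028, 115117649, 111617794 and 90728590 UMIs, in the library order of the report. The study used SoupX to correct for ambient RNA in its own analysis, and whether the deposited counts carry that correction is not given in the sources used here. Cells with 200 to 5000 genes and under 50% mitochondrial UMIs were kept, 10869, 9700, 6754 and 7466 in that order. No doublet caller was run. Cells holding over 0.2% of other-class marker UMIs were left out as an alternative.

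The genes and lists were chosen with earlier results of these data known. Named genes are the 9 members, the fixed lists (other male-high, female-high, steroid, polyamine and other proximal tubule genes) with values for examples, relatives of the members added after the data were seen, and the 3 closest genes by correlation over 8 profiles, of which the first or another member is named. Levels are pooled CPM with exact Poisson intervals. Ratios are log2 ratios with exact conditional binomial intervals, and a 0 was given a floor of 3 counts. A gene was counted in the background when its mean over the 4 libraries was at least 10 CPM. No p-value is given, because each condition has 1 library. Each ratio was recomputed under 17 alternatives, 2 of them added after the data were seen. Ratios were tested on simulated data before use. Genes of the Acsm, Cyp2j and Slco1a families have close relatives, so their counts are uncertain to that extent. The values of 1 gene of the steroid list are not reported here. Tables were made with pandas 2.3.3, intervals with scipy 1.17.1 and plots with matplotlib 3.10.9, under Python 3.11.15 with numpy 2.4.6.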

Additional observations from a re-analysis of the deposited data

Results flagged for a closer look

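Diet ratios went in opposite directions in the genotypes, beyond counting error, for 7 genes in late cells and for Acsm2 in early cells, higher on HFD in SP and lower in WT. The difference between genotypes was not tested, since each condition has 1 library. As the log2 ratio of HFD over ND in SP minus that in WT, late cells gave 1.61 for Kap, 2.75 for Slco1a1, 2.65 for Acsm3, 1.80 for Inmt, 1.11 for Cyp4b1, 1.22 for Cyp2j13 and 1.04 for Acsm2, and early cells gave 0.57 for Acsm2. Without cells over 0.2% in markers of other classes, the WT ratio in late cells was above 0 for Kap (only 0.02), Slco1a1, Acsm3 and Inmt. The directions were then no longer opposite for these 4, while the differences remained at 1.22, 2.26, 2.12 and 1.47. Over the 17 alternatives, the late WT ratio changed sign in 5 for Slco1a1 (-0.07) and in 2 for Inmt. For Cyp4b1, Cyp2j13 and Acsm2 in late cells the directions stayed opposite, with differences of 0.81, 0.84 and 0.65, and for Acsm2 in early cells with 0.52.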

How the results depend on the processing

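No paired analysis was possible because each condition has 1 library, and for the same reason no library could be left out within a condition. Of 1153 values of 68 ratios under 17 alternatives, 1096 had the reported sign and 57 did not. None of the 27 ratios at 2-fold or more changed sign under any of these alternatives. The number of genes past 2-fold moved as follows. For HFD in SP it was 5 or 6 in early cells, Cyp4b1 falling as low as 0.66 with cells of 5000 to 20000 UMIs. In late cells it was 4 in place of 6 with the split by summed marker lists (Kap 0.72, Cyp7b1 0.30) and with under 30% mitochondrial UMIs, and 7 when thinned, with Cyp2j13 at 1.18. For SP against WT on ND in late cells it was 5 in place of 6 with summed marker lists (Kap -0.75). For HFD in WT it was 1 in place of 2 in early cells with early and late cells merged. Slco1a1 (0.12) and Odc1 (0.77) then both fell below 2-fold, and the 1 was Cyp7b1 at 3.31. With the immune cell level subtracted, early Acsm3 passed 2-fold at 1.45 and early Slco1a1 had no value. In late cells the number was 2 in place of 1 with cells of 5000 to 20000 UMIs. For SP against WT on ND it was 1 in place of 5 in early cells with the immune cell level subtracted, because 3 ratios came below 2-fold and Slco1a1 had no value. That level is a CPM read from shallower cells. Other settings moved this number too. Cyp4b1 came to -0.96 without cells over 0.2% in other-class markers, and Inmt to -0.80 with cells thinned to 1000 UMIs. For SP against WT on HFD it was 1 in place of 0 in early cells, both without limits on genes or mitochondrial UMIs and with the segments merged. In late cells it was 2 in place of 1 when cells were split by the higher of Slc5a12 and Slc7a13, weighted equally, thinned, or held to 5000 to 20000 UMIs. The cause of these moves was not tested. The background without a filter on low levels gave shares of all genes past 2-fold of 8.76% to 21.6%, against 0.737% to 6.28% with it. Depth limits Cyp7b1, which rests on 4 to 256 late UMIs, and early Slco1a1 on ND.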
